A study of Homo sapiens with 36 samples.

Results

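The genes described here are 50 genes of mitosis and the G2/M transition, taken as a list of named genes from the count table of human neural stem cells (hNSC). All 50 were found among the 28516 listed genes, and all 50 were among the 19689 genes whose counts over the 36 libraries came to at least 10, which were the genes tested. The list was set by gene name, with earlier results of these libraries known. It holds 7 cyclins, CDK1 and CDC25 phosphatases, and 3 genes grouped as mitotic and centriole kinases (PLK1, PLK4 and AURKA). It also holds 5 genes of the spindle assembly checkpoint, 4 of the chromosomal passenger complex, and 6 of the centromere and kinetochore. Further members are 8 kinesins, 8 genes of spindle assembly and cytokinesis, and 3 of the exit from mitosis. The remaining ones are 4 genes of chromosome structure and mitotic entry (MKI67, TOP2A, CDCA2 and CDCA3) and 2 transcription factors.

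The study asked which genes respond to MEIS1 and MEIS2, a pair of paralogous homeodomain transcription factors. Commercial hNSC from Gibco were transduced with lentivirus and harvested after 48 h, and polyadenylated RNA was sequenced from 6 conditions with 6 libraries each. MEIS1-OE and MEIS2-OE received CRISPR-activation, in which a Cas9 that does not cut carries activating domains to the promoter of 1 of the paralogs, and ctrl-OE received the same machinery with non-targeting guides. MEIS1-KO and MEIS2-KO received cutting Cas9 with guides to the coding sequence, and ctrl-KO received it with non-targeting guides. CRISPR-activation was delivered by several viruses for guide, dCas9-VP64 and helper proteins, and CRISPR-KO by 1 vector for guide and Cas9, so all OE conditions share 1 vector set and all KO conditions the other. The KO conditions were pools of transduced cells and not clones, and cells with an uncut MEIS gene may remain. Nothing in the labels says that the 6 libraries of a condition came from separate cultures, so p-values measure the spread between these libraries, which may be technical.

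Dividing cells raise a shared set of genes towards the end of the cell cycle. Cyclin B and CDK1 start mitosis, the CDC25 phosphatases remove the phosphates that hold CDK1 inactive, and the Aurora and Polo-like kinases build the spindle. The spindle assembly checkpoint holds back the anaphase-promoting complex until every chromosome is attached, and this complex then marks securin and the cyclins for destruction. Most of these genes are repressed in resting cells by the DREAM complex and activated in G2 by MYBL2 with the MuvB proteins and by FOXM1. Neural stem cells in culture divide, and genes such as MKI67 and TOP2A are commonly used as markers of this.

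The promoters of these genes are known for a CHR element, with the letters TTTGAA or TTCGAA, next to a set of CCAAT boxes bound by NF-Y. The promoter stretches of MKI67, TOP2A, CCNB1, PLK1, KIF20A and CDC25C are shown to make this grammar visible. KIF20A and CDC25C were the members called in the most comparisons, and the other 4 were taken from the genes set to be named whatever their values. Each is the 120 bases before the RefSeq start site on GRCh38.p14, read 5′ to 3′ on the gene's strand, and capitals mark matches to the CHR letters or to CCAAT on either strand, so that a CCAAT box can appear as ATTGG.
MKI67, chr10:128126424-128126543, minus strand: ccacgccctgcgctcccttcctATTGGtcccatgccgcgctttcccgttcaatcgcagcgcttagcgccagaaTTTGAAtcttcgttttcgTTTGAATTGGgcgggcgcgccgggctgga
TOP2A, chr17:40417897-40418016, minus strand: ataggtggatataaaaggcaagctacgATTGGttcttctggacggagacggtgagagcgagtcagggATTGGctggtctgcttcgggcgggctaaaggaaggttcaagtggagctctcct
CCNB1, chr5:69167030-69167149, plus strand: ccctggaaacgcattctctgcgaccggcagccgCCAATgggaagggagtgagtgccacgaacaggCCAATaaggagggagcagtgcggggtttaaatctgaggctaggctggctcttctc
PLK1, chr16:23678769-23678888, plus strand: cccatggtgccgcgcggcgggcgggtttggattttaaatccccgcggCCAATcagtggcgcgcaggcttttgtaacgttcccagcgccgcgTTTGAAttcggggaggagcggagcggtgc
KIF20A, chr5:138178992-138179111, plus strand: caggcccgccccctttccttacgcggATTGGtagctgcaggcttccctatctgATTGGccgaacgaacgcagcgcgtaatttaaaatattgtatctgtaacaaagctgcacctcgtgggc
CDC25C, chr5:138338356-138338475, minus strand: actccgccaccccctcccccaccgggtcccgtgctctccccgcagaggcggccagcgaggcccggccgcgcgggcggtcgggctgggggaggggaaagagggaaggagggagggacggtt

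In MKI67 the letters TTTGAA stood 47 and 29 bases before the start site, and in PLK1 they stood 29 bases before it, with CCAAT 73 bases before it. TOP2A, CCNB1 and KIF20A held 2 CCAAT matches each in this stretch and no TTTGAA or TTCGAA, and CDC25C held neither motif there. CDK1 and MYBL2, from the same set of genes, are not shown, and their stretches of the same length held neither motif either. The RefSeq table held a promoter window for 42 of the 50 genes, covering 250 bases before to 50 bases after the start. TTTGAA or TTCGAA was found in 32 of these 42 windows (76.2%), against 16.6% of all 27305 promoters in the table. TOP2A and CDK1 were among the 32 in this longer window, whereas CCNB1, KIF20A, CDC25C and MYBL2 were not. CCAAT was found in 31 (73.8%), against 35.7% of all promoters, and both motifs were found together in 26 (61.9%), against 6.58%. These matches describe letters in a window and not bound sites. They come from a single start site per gene, and other start sites, also of CDC25C, were not examined.

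The total of counts per library ranged from 15429985 to 22940493. The labels of the targeted genes held, with MEIS1 higher in MEIS1-OE at a log2 fold change of 4.12 and lower in MEIS1-KO at -1.52, and with MEIS2 at 5.19 in MEIS2-OE and -1.10 in MEIS2-KO. Of the markers of neural stem cells, SOX2, SOX1, NES, PAX6 and VIM were detected in all conditions, whereas HES5 had a mean under 1 CPM in each condition, where CPM are library-size scaled counts after TMM normalization. The means of the defining markers GFAP, ALDH1L1, STMN2, SOX10 and MBP of other neural cells were also under 1 CPM, and the mesenchymal COL3A1 was at 162.2 to 619 CPM as a mean per condition. A library was said to stand apart if the median chi-square of its counts over its 5 pairs was above every pair among the others. By this rule over all tested genes, 1 library stood apart in each condition. These were replicate 6 of ctrl-OE, MEIS2-OE and MEIS1-KO, replicate 3 of MEIS1-OE, replicate 2 of ctrl-KO and replicate 1 of MEIS2-KO. Their medians ran from 11.4 per degree of freedom in MEIS2-KO to 26.7 in MEIS1-OE. Not every pair was high, and MEIS2-OE replicate 6 was at 3.91 and 4.8 with replicates 5 and 2. Counts of called genes without the libraries that stood apart are given where they differ by more than 1.5 times.

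The mitotic genes made up a larger share of the RNA in the KO conditions than in the OE conditions. Their summed level was 6474 ± 323.5 CPM (SD, n = 6) in ctrl-OE, 5681 ± 414.7 in MEIS1-OE and 6133 ± 257.9 in MEIS2-OE. It was 10680 ± 367.8 CPM in ctrl-KO, 10810 ± 512 in MEIS1-KO and 10080 ± 203.8 in MEIS2-KO. No OE library reached the lowest KO library, and the ranges of the 3 OE conditions overlapped with each other, as did those of the 3 KO conditions. In bulk RNA, fewer dividing cells and less of these mRNAs per cell cannot be told apart.

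**Figure D1:**
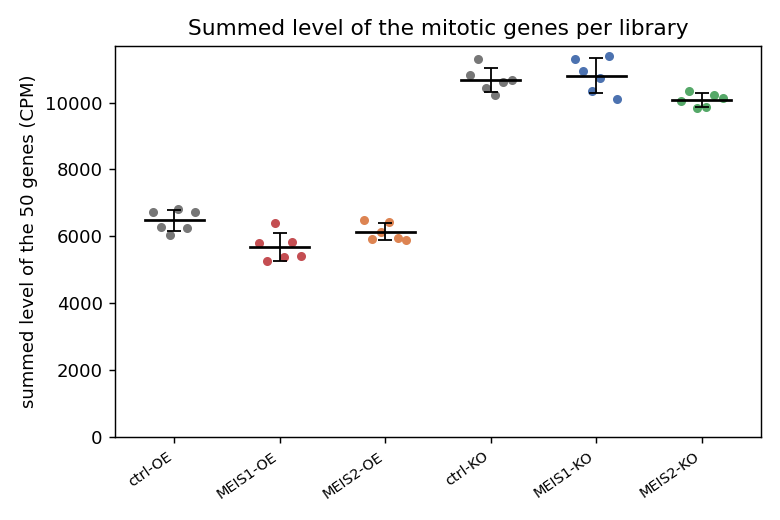
Summed level of the 50 mitotic genes in CPM (vertical axis) in each of the 36 libraries (points), by condition, with the mean (line) and SD (error bar). All 18 OE libraries lie at or below 6831 CPM and all 18 KO libraries at or above 9833 CPM.

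Per length of the transcript, the most abundant of the 50 genes in ctrl-KO was PTTG1, which encodes securin, the inhibitor of the enzyme that opens the cohesin ring, with 253.6 ± 17.6 CPM per kb (SD, n = 6). UBE2C followed with 253.2 ± 13.5 CPM per kb, which did not differ from PTTG1 beyond its spread, and then CCNB1 with 210.7 ± 11.2. At the other end, SGOL1, which protects cohesin at the centromere, was at 11.5 ± 0.748 CPM per kb, and the kinesins KIF20B and KIF14 were at 13.2 ± 0.862 and 14.2 ± 0.987. In ctrl-OE the same 3 genes were highest and the same 3 were lowest.

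The comparison of ctrl-OE with ctrl-KO gives the difference between the activation and the knockout system with non-targeting guides, and no untransduced cells were analysed here. All 50 genes were lower in ctrl-OE, and all 50 passed the test (the quasi-likelihood test of edgeR, with p-values adjusted by Benjamini and Hochberg over all genes tested, at an adjusted p under 0.05), whereas 23.9% of all tested genes were called lower and 51.4% in either direction. The median log2 fold change of the 50 genes was -0.72, a fall of 39.2%, against a median of 0.05 for all tested genes, and 40 of them also passed a threshold of 0.58 on the log2 scale, as did 9.15% of all tested genes in this direction. Scaled to total counts in place of TMM, 22 of the 50 and 6.24% of all tested genes passed it. For 49 of the 50 genes every ctrl-OE library lay below every ctrl-KO library, which held for 16.0% of all tested genes in this direction. The systems differ in their vectors, the number of viruses and whether the Cas9 is able to cut, and these cannot be told apart. The guides of both controls were non-targeting, so the Cas9 of ctrl-KO had no intended site to cut.

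CENPF, a large protein of the kinetochore and nuclear envelope, had the largest difference between the controls. It ranged from 362 to 457.3 CPM in ctrl-OE with a median of 404.1, and from 762.3 to 882.3 CPM in ctrl-KO with a median of 803.2. The groups did not overlap, and the log2 fold change was -0.99 with a standard error (SE) of 0.07 (edgeR quasi-likelihood adjusted p = 2.0e-15).

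TOP2A, which untangles sister chromatids, ranged from 534.9 to 639.9 CPM in ctrl-OE with a median of 563.9 and from 948.7 to 1113 CPM in ctrl-KO with a median of 994.2, a log2 fold change of -0.81 (SE 0.06). KIF2C, a kinesin that takes microtubules apart at the centromere, had the smallest p of the 50 genes, with 126.5 to 145.6 CPM (median 135.5) in ctrl-OE and 222.1 to 241.5 CPM (median 228.7) in ctrl-KO. Its log2 fold change was -0.76 (SE 0.04, edgeR quasi-likelihood adjusted p = 2.5e-19). FOXM1, a transcription factor that activates G2/M genes, ranged from 150.1 to 173 CPM (median 160.7) in ctrl-OE and from 248 to 269.7 CPM (median 255) in ctrl-KO, and CDCA8, the borealin subunit of the passenger complex, from 77.6 to 87.2 CPM (median 83.6) and from 131.6 to 141.7 CPM (median 133.9). The libraries of both controls were apart for each of these genes, and the log2 fold changes were -0.66 for FOXM1 and -0.70 for CDCA8.

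The smallest differences were those of the phosphatases CDC25B (log2 fold change -0.26) and CDC25C (-0.39), of BUB3 (-0.44), which carries checkpoint proteins to the kinetochore, of MYBL2 (-0.45) and of the cyclin CCNF (-0.46). MYBL2 was the only gene whose control libraries overlapped, with 106.6 to 152.6 CPM (median 120.5) in ctrl-OE and 137.8 to 187.3 CPM (median 168.7) in ctrl-KO. Every gene of all 10 role groups was called lower, with group medians from -0.56 for the transcription factors to -0.80 for the checkpoint genes.

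Genes of other phases of the cycle were lower in ctrl-OE too. Of 43 genes of G1/S and DNA replication, 41 were called lower and 1 higher, with a median log2 fold change of -0.62, and of 91 other mitotic genes 71 were called lower and 3 higher, with a median of -0.47. Of 18 genes of the DREAM complex, MuvB and the E2F family, 14 were lower and 1 higher, with E2F7, a repressor of cell cycle genes, at -0.93. Of 8 inhibitors of cyclin-dependent kinases, 4 were lower and 2 higher, among them CDKN3 at -0.61, CDKN1C at -1.12 and CDKN2D at 0.80. Markers of cell type moved in the same comparison. Of 9 neural stem cell markers 7 were called lower in ctrl-OE and 0 higher, with a summed level of 2931 to 3800 CPM in ctrl-OE and 4335 to 4846 in ctrl-KO. VIM and NES made up most of this sum in every condition. Of 6 neuron markers 4 were lower, with sums of 405 to 586.8 and 968.9 to 1013 CPM, and of 5 mesenchymal markers 3 were lower and 1 higher, with sums of 271.5 to 445.3 and 642.6 to 846.4 CPM. Of 5 astrocyte markers 3 were lower and 1 higher, with sums of 8.46 to 14.7 and 28.1 to 32.6 CPM and a median log2 fold change of -0.98, and of 5 oligodendrocyte lineage markers 1 was lower and 1 higher, with sums of 27.3 to 29.6 and 31.8 to 38.0 CPM. Their part in the result was not tested.

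**Figure D2:**
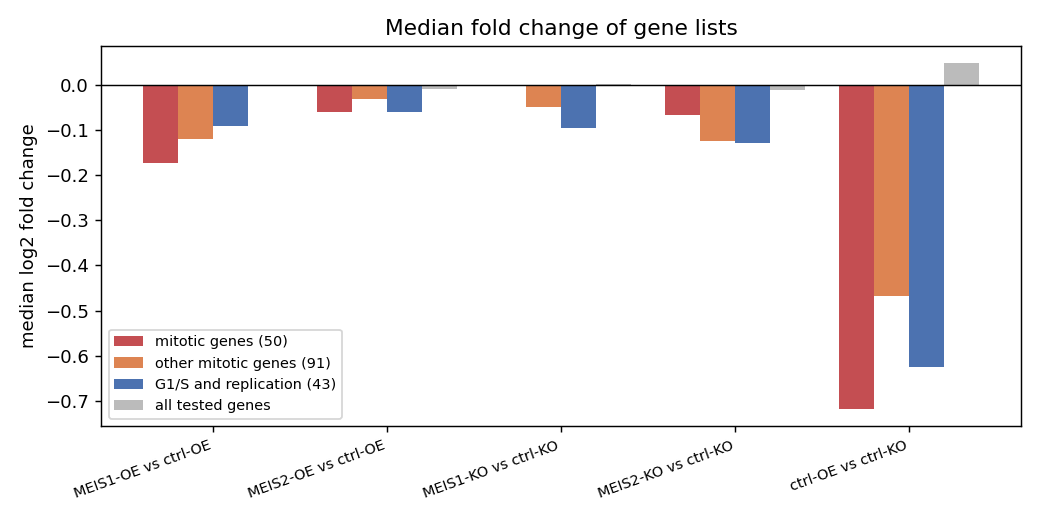
Median log2 fold change (vertical axis) of the 50 mitotic genes, 91 other mitotic genes, 43 genes of G1/S and replication and all tested genes, in 5 comparisons (horizontal axis). The median of the 50 genes is -0.72 between the controls, -0.17 in MEIS1-OE and 0.00 in MEIS1-KO.

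In MEIS1-OE all 50 genes had a negative log2 fold change relative to ctrl-OE, with a median of -0.17 or a fall of 11.3%, against a median of 0.00 for all tested genes. Of the 50, 29 passed edgeR's quasi-likelihood test as lower and 0 as higher, whereas 3.58% of all tested genes were called lower and 9.10% in either direction. CDC25C was the only called gene past 0.58 on the log2 scale, as were 0.599% of all tested genes in this direction. MEIS1-OE replicate 3 had the highest value of its condition for 37 of the 50 genes, with a summed level of 6388 CPM against 5266 to 5829 in the other 5 libraries, and without it, or without the libraries numbered 3 in all conditions, 39 genes were called lower. Without the libraries numbered 1, 2, 4 or 6, the count was 17, 16, 12 and 18, and in a fit of MEIS1-OE and ctrl-OE alone it was 13. The share of all tested genes called in either direction moved too. It was 12.7% without MEIS1-OE replicate 3, 11% without number 3 in all conditions, and 6.28% in the fit of both groups alone. Without the numbers 1, 2, 4 and 6 it was 6.85%, 6.54%, 5.92% and 8.48%.

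CDC25C, the phosphatase that activates CDK1 at the onset of mitosis, ranged from 23.9 to 32.3 CPM in MEIS1-OE with a median of 27.2, and from 38.0 to 46.2 CPM in ctrl-OE with a median of 41.7. Every MEIS1-OE library lay below every ctrl-OE library, with a log2 fold change of -0.61 (SE 0.07, edgeR quasi-likelihood adjusted p = 2.8e-08). It is 1 of 4 genes whose libraries did not overlap in this comparison, which held for 1.21% of all tested genes in this direction.

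KIF20A, a kinesin of the central spindle that is needed for cytokinesis, ranged from 119.2 to 142.7 CPM in MEIS1-OE (median 124.7) and from 156.5 to 183 CPM in ctrl-OE (median 168.2), a log2 fold change of -0.42 (SE 0.05, edgeR adjusted p = 1.2e-07). CDC25B, the phosphatase that acts earlier in G2, ranged from 57.3 to 67.35 CPM (median 60.7) and from 68.75 to 83.45 CPM (median 73.2), a log2 fold change of -0.28 (SE 0.05, edgeR adjusted p = 3.0e-05). CDCA3, which helps to trigger entry into mitosis, was the fourth gene without overlap, with 28.1 to 33.9 CPM (median 30.8) in MEIS1-OE and 34.5 to 40.2 CPM (median 36.3) in ctrl-OE and a log2 fold change of -0.25. For the other 25 called genes the libraries of both groups overlapped.

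By role, 6 of 8 kinesins passed the test as lower, among them KIF14 (-0.27), KIF15 (-0.26) and KIF4A (-0.24). MKI67, TOP2A, CDCA2 and CDCA3, grouped as chromosome structure and mitotic entry, all did, with MKI67, which coats mitotic chromosomes, at -0.30 and TOP2A at -0.20. Of 6 genes of the centromere and kinetochore 4 were lower, namely CENPE (-0.33), a motor that carries chromosomes to the spindle equator, CENPF (-0.26), NUF2 (-0.25) and CENPA (-0.19), the histone that marks centromeres. Of 7 cyclins, CDK1 and CDC25 genes 4 were lower, with CDK1 at -0.16 and CCNB1 at -0.15 beside the 2 phosphatases.

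MKI67 ranged from 262 to 362.7 CPM in MEIS1-OE (median 315.9) and from 359.4 to 419 CPM in ctrl-OE (median 377), CDK1 from 143.1 to 179.5 CPM (median 148.1) and from 161.9 to 182.6 CPM (median 171.1), and CCNB1 from 225.6 to 261.3 CPM (median 234.4) and from 254.5 to 273.1 CPM (median 262.9). In each of these, 5 of 6 MEIS1-OE libraries lay below all ctrl-OE libraries. TOP2A ranged from 445.1 to 620.2 CPM in MEIS1-OE with a median of 483.3, and FOXM1 from 138.8 to 153.7 CPM with a median of 145.6, a log2 fold change of -0.15 (edgeR quasi-likelihood adjusted p = 0.0022). Of PLK1, PLK4 and AURKA, grouped as mitotic and centriole kinases, only AURKA, the kinase of the spindle poles, was called. It ranged from 62.4 to 74.2 CPM in MEIS1-OE (median 66.1) and from 73.2 to 85.7 CPM in ctrl-OE (median 78.3).

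Genes that did not pass in MEIS1-OE included PLK1, the Polo-like kinase of spindle assembly, at a log2 fold change of -0.10 (edgeR adjusted p = 0.323), MYBL2 at -0.13 (edgeR adjusted p = 0.475) and UBE2C at -0.07 (edgeR adjusted p = 0.511). PLK1 ranged from 102 to 130.8 CPM in MEIS1-OE (median 116.3) and from 111.6 to 146.4 CPM in ctrl-OE (median 123.4), so that the groups overlapped. Of the other lists, 16 of 91 other mitotic genes were called lower and 0 higher (median -0.12), and 8 of 43 genes of G1/S and replication were lower and 1 higher (median -0.09). Among the DREAM, MuvB and E2F genes E2F2 (-0.27) and LIN54 (-0.19) were lower, and among the CDK inhibitors CDKN2C (-0.96), CDKN3 (-0.33) and CDKN2D (-0.42) were lower.

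Markers of cell type moved in MEIS1-OE as well. Of 9 neural stem cell markers SOX1 (-0.31) and HES5 (-2.96, at means under 1 CPM) were called lower and 0 higher, with sums of 3255 to 4164 CPM against 2931 to 3800 in ctrl-OE. These sums were mostly VIM and NES, and 5 of the 9 markers had a negative and 4 a positive log2 fold change. Of 5 astrocyte markers SLC1A3 was called lower (-0.50), with sums of 7.36 to 10.6 CPM against 8.46 to 14.7, and of 6 neuron markers SYT1 was called higher (0.26), with sums of 470.6 to 530.5 CPM against 405 to 586.8. Of the 5 mesenchymal and the 5 oligodendrocyte lineage markers 0 were called. The part of these cell types in the result was not tested.

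**Figure D3:**
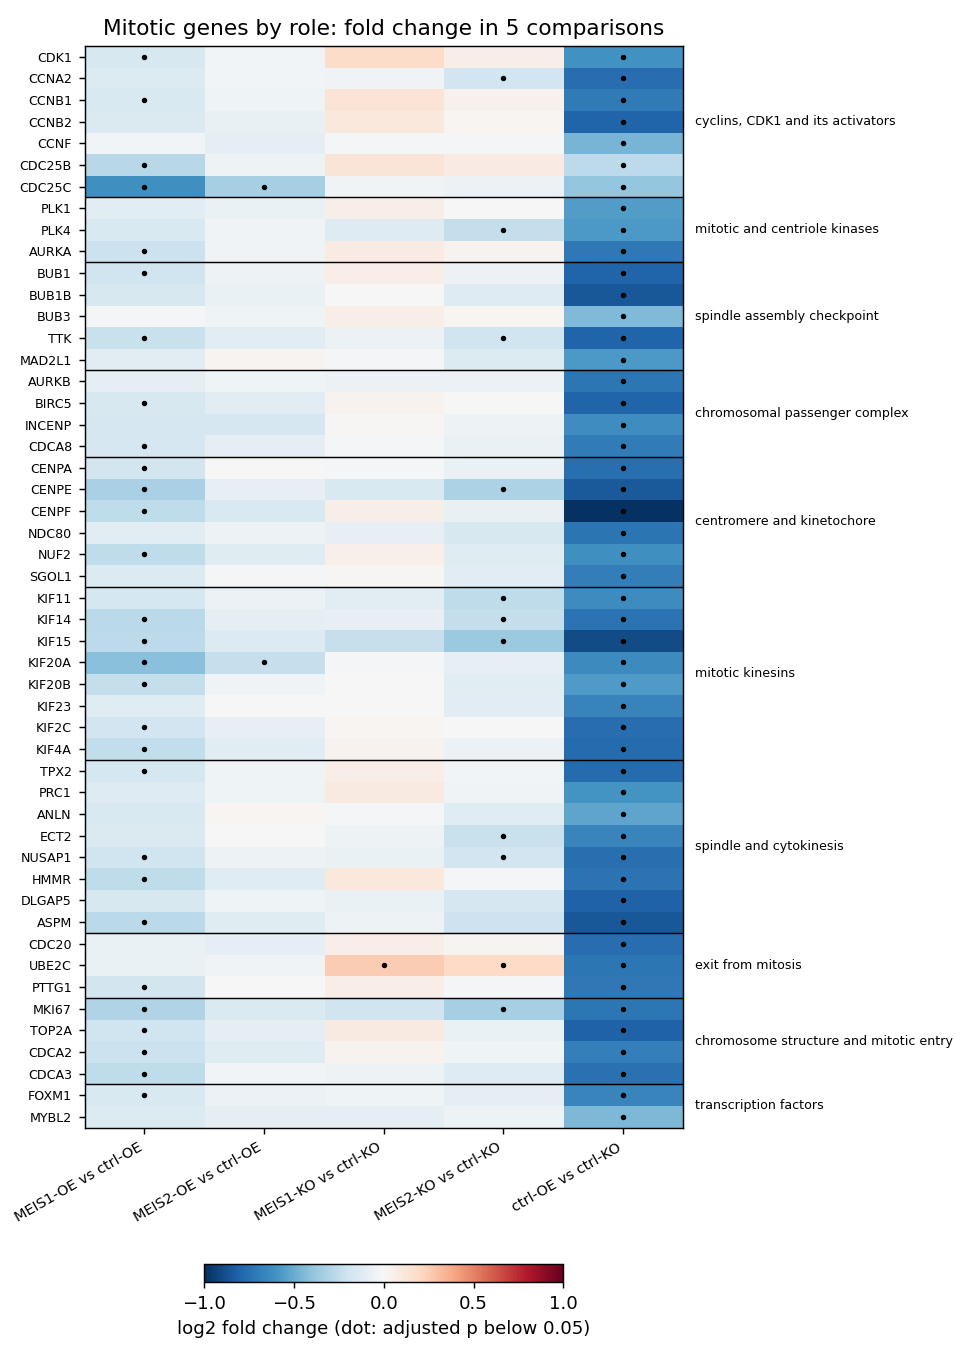
Log2 fold change (color) of the 50 mitotic genes (rows, grouped by role) in 5 comparisons (columns), with a dot where the adjusted p was below 0.05. The control comparison is blue and dotted in all 50 rows, MEIS1-OE has 29 dots, and the row of UBE2C is red in both knockouts.

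MEIS2-OE, in contrast, had only 2 of the 50 genes called, both lower, beside 0.279% of all tested genes called lower and 1.35% in either direction. They were CDC25C and KIF20A. Of the 50, 46 had a negative log2 fold change, with a median of -0.06, and in the other lists of the cell cycle 0 genes were called but CDKN2C, an inhibitor of CDK4 and CDK6, at 2.50. Of the cell type markers HES5, at means under 1 CPM, was called lower (-2.79), and 0 were called higher.

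CDC25C ranged from 29.1 to 37.2 CPM in MEIS2-OE with a median of 33.2, below all ctrl-OE libraries, with a log2 fold change of -0.33 (SE 0.07, edgeR quasi-likelihood adjusted p = 0.0051). KIF20A ranged from 133.3 to 158.3 CPM with a median of 143.6, with 5 of 6 libraries below all of ctrl-OE, and its log2 fold change was -0.23 (SE 0.05, edgeR adjusted p = 0.010). MKI67 ranged from 310.7 to 387.2 CPM (median 357.2) and TOP2A from 488.3 to 593.4 CPM (median 526.8), and neither passed the test. The next smallest p was that of CENPF, at 334.4 to 420.7 CPM (median 362.8) and a log2 fold change of -0.15 (edgeR adjusted p = 0.545).

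The OE conditions were compared with each other directly, in a test that needs no control. In MEIS1-OE 8 genes were lower than in MEIS2-OE and 0 were higher, beside 2.82% of all tested genes called lower and 7.75% in either direction. They were CDC25B (-0.23, edgeR quasi-likelihood adjusted p = 5.7e-04), CDCA3 (-0.23), CDC25C (-0.28), KIF20A (-0.19), CENPA, PTTG1, ANLN and CENPE. CDCA3 ranged from 32.2 to 40.1 CPM in MEIS2-OE with a median of 36.1, and CDC25B from 66.3 to 79.1 CPM with a median of 71.2, and the libraries of both conditions overlapped for each of these 8 genes but CENPA, in a direction in which 1.33% of all tested genes did not overlap. The count moved when the libraries of 1 number were left out of all conditions, being 2 without the libraries numbered 4, 4 without those numbered 1 or 2, and 21 without those numbered 3. It was 28 without MEIS1-OE replicate 3 alone. The share of all tested genes called was 5.23% without number 4, 5.54% and 5.95% without 1 and 2, 10.3% without 3 and 11.6% without that replicate alone. Of the cell type markers MSI1, a marker of neural stem cells, was called higher in MEIS1-OE (0.29).

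**Figure D4:**
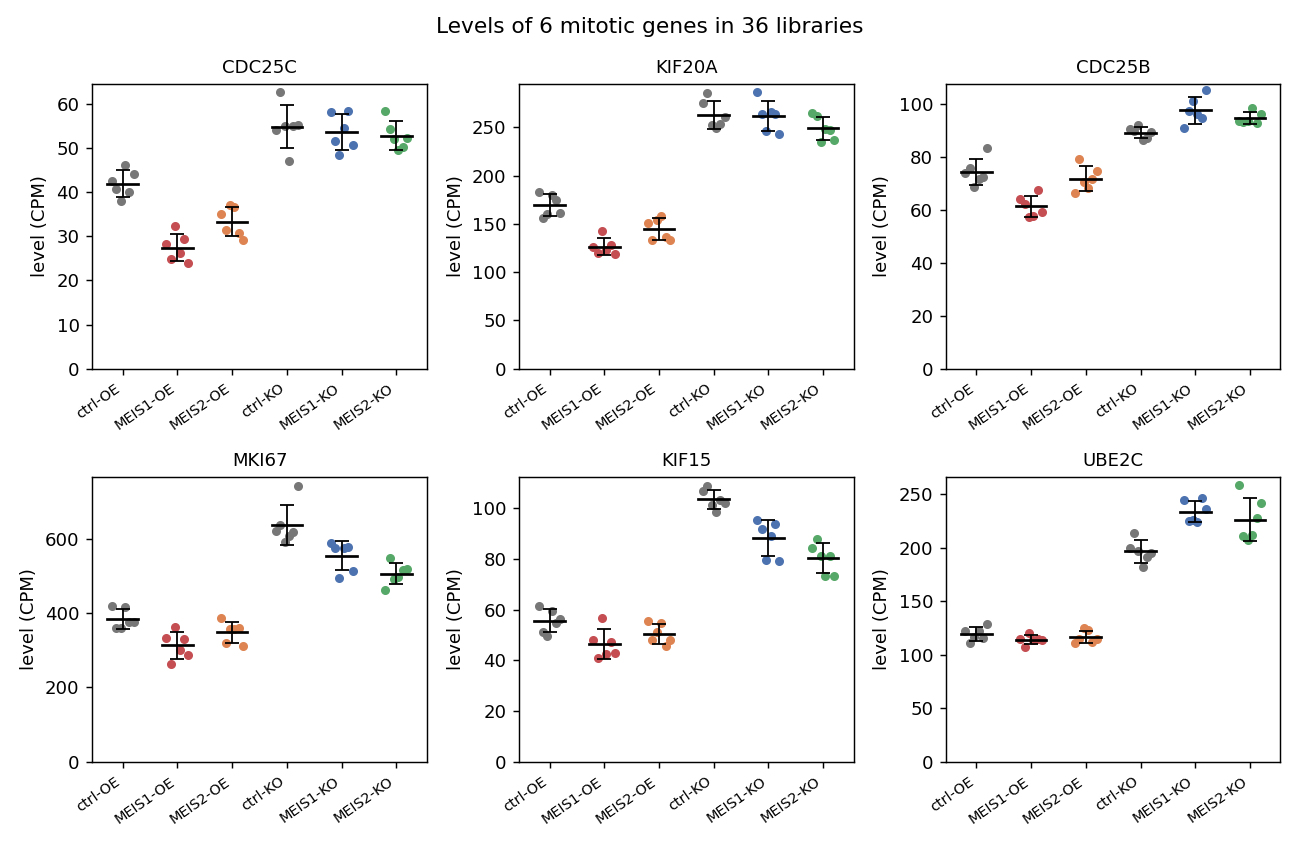
Levels in CPM (vertical axis) of CDC25C, KIF20A, CDC25B, MKI67, KIF15 and UBE2C in the 36 libraries (points) by condition, with mean (line) and SD (error bar). CDC25C is lower in every MEIS1-OE and MEIS2-OE library than in ctrl-OE, and UBE2C is higher in every MEIS1-KO library than in ctrl-KO.

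In MEIS1-KO 1 of the 50 genes passed edgeR's quasi-likelihood test, beside 1.03% of all tested genes called higher and 1.46% in either direction. It was UBE2C, the ubiquitin-conjugating enzyme that works with the anaphase-promoting complex, which was higher. UBE2C ranged from 224.4 to 246.5 CPM in MEIS1-KO with a median of 231.4, and from 182.5 to 214.1 CPM in ctrl-KO with a median of 196.2. The groups did not overlap, which held for 1.39% of all tested genes in either direction, and the log2 fold change was 0.25 (SE 0.05, edgeR adjusted p = 0.0022). Without the libraries numbered 5 this call was lost, and 3 genes were called higher without ctrl-KO replicate 2 and 2 without MEIS1-KO replicate 6. Of all tested genes, 0.592%, 1.25% and 1.18% were then called in either direction.

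The 50 genes were evenly divided in MEIS1-KO, with 25 positive and 25 negative log2 fold changes and a median of 0.00. CDK1 ranged from 252.4 to 331.3 CPM in MEIS1-KO (median 297.5) and from 239.8 to 279.1 CPM in ctrl-KO (median 261.5), a log2 fold change of 0.18 (edgeR quasi-likelihood adjusted p = 0.057). KIF15, a kinesin that helps to keep the spindle poles apart, ranged from 79.2 to 95.4 CPM (median 90.4) and from 98.6 to 109 CPM (median 102.7), a log2 fold change of -0.23 (edgeR adjusted p = 0.065). The KIF15 libraries did not overlap, and neither did those of MKI67, with 494.5 to 587.6 CPM in MEIS1-KO (median 575.5) and 590.1 to 742.5 in ctrl-KO (median 620.6). The inhibitor CDKN1A was called higher, with a log2 fold change of 0.39, and 4 of 43 genes of G1/S and replication were called lower, among them MCM6 (-0.21), a subunit of the replicative helicase. Of 9 neural stem cell markers PAX6 (-0.42) was called lower and VIM (0.25) higher, with sums of 4659 to 5947 CPM against 4335 to 4846 in ctrl-KO, and of 5 mesenchymal markers COL1A1 (0.82) was called higher, with sums of 737.5 to 1043 CPM against 642.6 to 846.4. The stem cell sums were mostly VIM and NES, and 6 of the 9 markers had a negative and 3 a positive log2 fold change. Of the neuron, astrocyte and oligodendrocyte lineage markers 0 were called, and the part of these cell types in the result was not tested.

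In MEIS2-KO 10 of the 50 genes were called lower and 1 higher, beside 5.98% and 4.04% of all tested genes and 10.0% in either direction. Beside these stand 27 of 91 other mitotic genes and 18 of 43 genes of G1/S and replication that were called lower too. The median log2 fold change of the 50 was -0.07. Without ctrl-KO replicate 2 or without MEIS2-KO replicate 1, 5 of the 10 were called lower, and without the libraries numbered 1 in all conditions 4 genes were. The share of all tested genes called in either direction was then 6.90%, 8.66% and 6.15%. The 10 were the kinesins KIF15, KIF11 and KIF14, the kinases PLK4 and TTK, MKI67, CENPE, CCNA2, and NUSAP1 and ECT2, which act in spindle assembly and cytokinesis.

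KIF15 ranged from 73.15 to 88.05 CPM in MEIS2-KO with a median of 81.2, below all ctrl-KO libraries, with a log2 fold change of -0.37 (SE 0.07, edgeR quasi-likelihood adjusted p = 2.8e-04). MKI67 ranged from 463.4 to 549.1 CPM with a median of 507.1, again below all ctrl-KO libraries, as were 4.05% of all tested genes, with a log2 fold change of -0.33 (SE 0.06, edgeR adjusted p = 8.2e-04). UBE2C was higher here as well, with 207.1 to 258.8 CPM and a median of 220.3, a log2 fold change of 0.20 (SE 0.05, edgeR adjusted p = 0.0050), and 3 of 6 libraries lay above all ctrl-KO libraries. CDK1 (0.07), CCNB1 (0.04), PLK1 (0.01), AURKA (0.04), TOP2A (-0.06), FOXM1 (-0.09) and MYBL2 (-0.05) did not pass. Both knockouts were compared with the same 6 control libraries, so their values for a gene are not independent. Guided cutting of DNA also sets both knockouts apart from ctrl-KO, and its part in these values was not tested.

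The fall in MEIS2-KO went with the base composition and the length of the transcripts. Over the 50 genes the log2 fold change had a Spearman correlation of 0.50 with the GC content and of -0.48 with the length of the transcript, and over 12622 tested genes with log2 CPM above 0 these were 0.53 and -0.27, values that describe genes of the same libraries. The 10 genes called lower had a median GC content of 38.8% and a median length of 4448 bases, against 45.5% and 3043 bases for the other 40. When GC content and length were taken into the fit, 12 of the 50 genes were called lower, 7 of them among the 10, beside 12.5% of all tested genes called in either direction. In MEIS1-OE the correlation was 0.21 with GC content and -0.27 with length, against 0.24 and -0.17 over the 12622 genes. The 29 genes called lower there had a median GC content of 43.5% against 41.9% for the other 21. With GC content and length in the fit, 44 genes were called lower. This fit called 15.6% of all tested genes in either direction, against 9.10% without them. The part of GC content and length in the MEIS2-KO result was not otherwise tested.

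**Figure D5:**
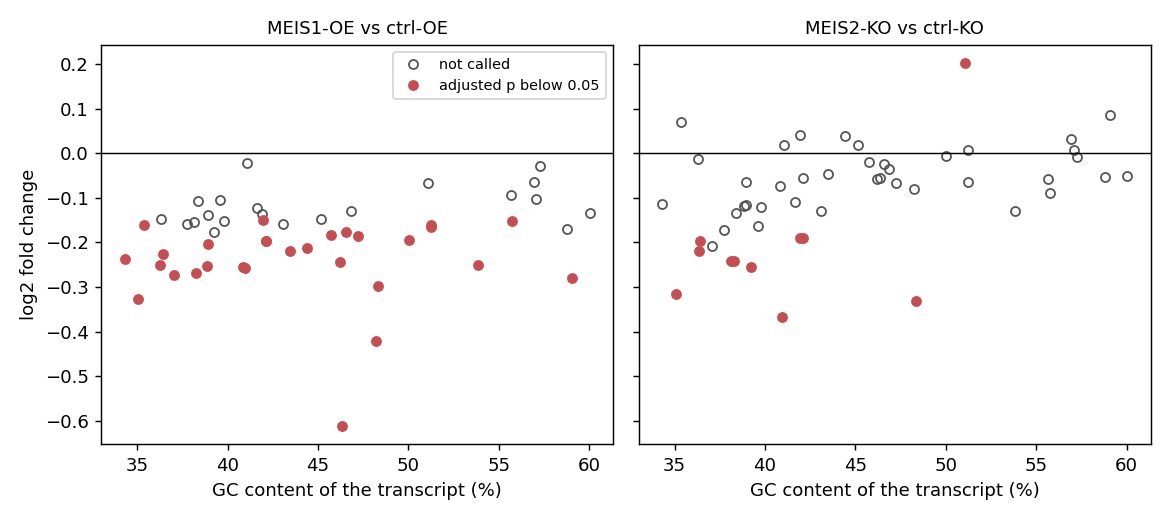
Log2 fold change (vertical axis) against the GC content of the transcript in percent (horizontal axis) for the 50 mitotic genes in MEIS1-OE and MEIS2-KO, filled where the adjusted p was below 0.05. In MEIS2-KO the points called lower lie mostly at low GC content, with a median of 38.8%, and in MEIS1-OE they spread over the whole range.

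Of 8 inhibitors of cyclin-dependent kinases 2 were called higher and 2 lower in MEIS2-KO. CDKN1A rose by 0.52 on the log2 scale and CDKN2B, which had a mean of 0.66 CPM and was added after its value was seen, by 0.80, while CDKN2C (-0.60) and CDKN1B (-0.27) fell. Of the 18 genes of DREAM, MuvB and E2F 6 were lower, among them LIN9 (-0.29), E2F5 (-0.20) and E2F8 (-0.49), and of the other mitotic genes the cohesin subunits STAG1 (-0.37), STAG2 (-0.28) and SMC1A (-0.18) had the smallest p. MCM6 (-0.34) and POLA1 (-0.33), a subunit of DNA polymerase alpha, were lower among the replication genes. Of 9 neural stem cell markers 4 were called lower and 1 higher in MEIS2-KO, with sums of 4893 to 5976 CPM against 4335 to 4846 in ctrl-KO. These sums were mostly VIM and NES, with means of 3065 and 1716 CPM in MEIS2-KO and 2444 and 1518 in ctrl-KO. Of the 9 markers 6 had a negative and 3 a positive log2 fold change. Of 5 mesenchymal markers 2 were called higher, COL1A1 (log2 fold change 1.06, with means of 75.9 and 36.3 CPM) and COL1A2 (0.27), with sums of 714.7 to 935.5 CPM against 642.6 to 846.4. Of 6 neuron markers DCX was called lower, at means under 1 CPM, with sums of 812.8 to 1000 CPM against 968.9 to 1013, and of 5 astrocyte markers SLC1A3 was called lower (-0.45), with sums of 21.9 to 26.3 CPM against 28.1 to 32.6. Of 5 markers of the oligodendrocyte lineage 0 were called. The part of these cell types in the result was not tested. Between MEIS1-KO and MEIS2-KO 0 of the 50 genes passed edgeR's test, with 16 at an unadjusted p under 0.05 and 0 in each of the alternatives that were tried, beside 0.0152% of all tested genes called. The log2 fold change was positive, or higher in MEIS1-KO, for 48 of the 50. Its median was 0.10, against 0.02 for all tested genes.

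The study's own contrast takes the effect of OE and subtracts that of KO, each against its control. For MEIS1 all 50 genes had a negative contrast with a median of -0.17, and 11 passed edgeR's quasi-likelihood test as lower and 0 as higher, beside 1.14% of all tested genes called lower and 3.48% in either direction. None of the 11 passed 0.58 on the log2 scale. CDC25B (-0.41, SE 0.07), CDC25C (-0.58, SE 0.10) and KIF20A (-0.41, SE 0.07) had the smallest p, with adjusted p = 4.3e-05, 1.7e-04 and 2.7e-04 from edgeR. For CDC25C and KIF20A the KO effect was close to 0 (-0.03 and -0.01), so that the contrast was nearly that of MEIS1-OE alone.

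The other 8 genes called, like CDC25B, had a negative log2 fold change in MEIS1-OE and a positive one in MEIS1-KO. They were CDK1 (-0.34, edgeR quasi-likelihood adjusted p = 0.0019), UBE2C (-0.32), CCNB1 (-0.29), AURKA (-0.29), KIF4A (-0.28), BUB1 (-0.26), a checkpoint kinase, KIF2C (-0.22) and NUF2 (-0.30). MKI67 (-0.10), KIF15 (-0.03) and MYBL2 (-0.04), whose log2 fold changes were negative in both MEIS1-OE and MEIS1-KO, did not pass. The count was 6 without the libraries numbered 1 or 4, 7 without those numbered 5, and 19 without those numbered 3. It was 19 without MEIS1-OE replicate 3 alone or ctrl-KO replicate 2 alone, and 17 without MEIS1-KO replicate 6. The share of all tested genes called was 2.30% and 2.38% without the numbers 1 and 4, 2.05% without 5 and 3.20% without 3, and from 3.54% to 4% without these single libraries. In the other mitotic genes 0 of 91 were called, and 1 of 43 of G1/S and replication.

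For MEIS2 the contrast called 0 of the 50 genes by edgeR's quasi-likelihood test, with 11 at an unadjusted p under 0.05, beside 2.57% of all tested genes called in either direction. By DESeq2 1 gene was called lower, beside 3.41% of all tested genes called in either direction. UBE2C had the smallest p, with a contrast of -0.24 (SE 0.07, edgeR adjusted p = 0.051), followed by CDC25C at -0.28 (edgeR adjusted p = 0.141). Of the 50 genes 26 had a positive contrast, among them CENPE (0.24), KIF15 (0.23) and MKI67 (0.19), none of which passed. The contrasts of MEIS1 and MEIS2 share both controls.

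Within a condition, most of the 50 genes rose and fell together from library to library. After subtraction of the mean of each condition, the median correlation over the 1225 pairs of the 50 genes was 0.50 over 36 libraries, and 72.7% of the pairs were above 0, whereas it was 0.01 over the pairs of 1347 other genes. These libraries share their depth and preparation, so that the correlation is a description. A group of 7 genes ran against the rest, with correlations of -0.58 for MYBL2, -0.44 for CCNF, -0.41 for AURKB, -0.37 for INCENP, -0.31 for PLK1, -0.17 for CDC20 and -0.16 for CDC25B with the mean of the other members. Over the 50 genes this correlation fell with GC content, at a Spearman rho of -0.63.

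Of the 50 genes, 12 overlap another gene of the table on the opposite strand of GRCh37 and 4 on the same strand. CDC25C, at 137620958 to 137674044 of chromosome 5 (minus strand), overlaps FAM53C, and KIF20A, at 137514408 to 137523412 of chromosome 5 (plus strand), overlaps the ends of BRD8 and CDC23. The libraries were stranded, but the strand setting of the counting is not given in the sources used here, and without strand the reads of such pairs cannot be told apart. In MEIS1-OE, FAM53C, BRD8 and CDC23 were not called by edgeR's quasi-likelihood test, with log2 fold changes of -0.10, -0.15 and -0.04.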

How the data were processed

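The authors sequenced polyadenylated RNA of hNSC in 6 conditions with 6 libraries each, 48 h after transduction. Libraries were stranded and sequenced from both ends, and the submitters' processing notes name Trimmomatic 0.39, STAR 2.7.0a and hg19, whereas the study's methods name an earlier STAR release, with HTSeq for counting. The annotation and the strand setting of the counting are not given in the sources used here. As deposited by the authors, the values are raw counts of reads per gene symbol, without normalization, and every column was assigned by its label. The members and lists were chosen with earlier results of these data known.

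Genes whose counts came to at least 10 over the 36 libraries entered 1 fit of the 6 conditions with edgeR 4.0.16 (limma 3.58.1, R 4.3.3), by TMM normalization and two-sided quasi-likelihood F tests with a prior count of 0.125. Adjustment followed Benjamini and Hochberg, over the genes tested within each comparison. A gene was called at an adjusted p under 0.05, and a threshold of 0.58 on the log2 scale was an alternative. The biological coefficient of variation was 0.0915. Values per library are CPM after TMM normalization, and standard errors come from the F statistics.

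Genes selected to be named with their values were the 3 with the smallest p in each comparison with a called member. The others selected were members past the threshold of 0.58 against their control, and MKI67, TOP2A, CDK1, CCNB1, PLK1, AURKA, FOXM1 and MYBL2. Their values are not printed for every condition. Genes of other lists were to be named only where called, at most 3 per list and comparison, but cell type markers and CDKN2B were named beyond this after their values were seen. Positions, GC content and lengths were read from GRCh37 with a GENCODE annotation lifted to it (84.3% of tested genes matched, and all 50 members). Promoters came from RefSeq on GRCh38.p14.

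The alternatives were RLE size factors, filterByExpr or no filter, a prior count of 2, a replicate block, fits of the compared groups alone, leaving out each replicate number, DESeq2 1.42.0 and the fold threshold. Offsets for GC content and length, scaling to total counts, fits of only the activation or the knockout conditions, and fits without single libraries that stood apart were added after the data were seen. Python 3.11.15 with pandas 2.3.3 and matplotlib 3.10.9 was used for annotation and plots.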

Additional observations from a re-analysis of the deposited data

Results flagged for a closer look

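In 108 groups of 6 libraries checked for a single library far from the others (Dixon's test at the 95% level, which chance passes in about 1 of 20 groups), 8 values stood out. In MEIS1-OE replicate 3, CCNB1 was at 261.3 CPM against 225.6 to 235.8 in the other libraries, CDK1 at 179.5 against 143.1 to 151.6, and KIF20A at 142.7 against 119.2 to 127.6. In MEIS2-KO, CDK1 was at 281.5 CPM in replicate 5 against 268.6 to 273.4, and FOXM1 at 231.4 CPM in replicate 3 against 239.9 to 244.8. FOXM1 was at 148.6 CPM in MEIS2-OE replicate 4 against 155.1 to 158.1, MKI67 at 742.5 CPM in ctrl-KO replicate 6 against 590.1 to 637.3, and MYBL2 at 152.6 CPM in ctrl-OE replicate 6 against 106.6 to 122.3.

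The difference between the MEIS1-OE and the MEIS1-KO effect passed edgeR's quasi-likelihood test for 8 of the genes selected to be named. The log2 differences were -0.41 for CDC25B, -0.58 for CDC25C, -0.41 for KIF20A, -0.34 for CDK1, -0.32 for UBE2C, -0.29 for CCNB1, -0.29 for AURKA and -0.22 for KIF2C. Between MEIS1-OE and MEIS2-OE the difference passed for 4 of the selected genes, with -0.23 for CDC25B, -0.28 for CDC25C, -0.23 for CDCA3 and -0.19 for KIF20A. The causes of these differences were not tested.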

How the results depend on the processing

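Between the controls, all 50 genes were called lower under each alternative that includes both controls, except that 40 were with the fold threshold, and 22 with that threshold and total counts. Scaled to total counts, the median of all tested genes moved from 0.05 to 0.20, and that of the 50 genes from -0.72 to -0.57. With the fold threshold, 1 gene remained lower in MEIS1-OE, and 0 in MEIS2-OE, in MEIS2-KO, in the MEIS1 contrast and between MEIS1-OE and MEIS2-OE, and 0 higher in either knockout. Of the genes called lower in MEIS1-OE, 29 became 13 with only the groups compared, 44 with GC content and length in the fit, and 19 with only the activation conditions. These fits called 6.28%, 15.6% and 7.56% of all tested genes in either direction. For MEIS2-OE, 1 gene was called lower in the fits of only the groups or only the activation conditions. They called 1.05% and 0.995% of all tested genes, against 1.35% in the reported fit. In MEIS2-KO, 6 were lower with total counts, and 3 were higher with GC content and length in the fit. These fits called 9.14% and 12.5% of all tested genes in either direction, against 10% in the reported fit. For MEIS1-KO, 2 genes were called higher with filterByExpr, with DESeq2 and with only the knockout conditions, and 5 with GC content and length. There 1 gene was called lower with only the groups compared, DESeq2, total counts and only the knockout conditions, and 3 with GC content and length. Of all tested genes in MEIS1-KO, 2.21% were called with filterByExpr and with DESeq2, 1.72% with only the knockout conditions and 4.6% with GC content and length. The share was 1.02% with only the groups compared and 1.5% with total counts, against 1.46% in the reported fit. In the MEIS1 contrast 19 were lower with DESeq2, 28 with GC content and length and 18 with total counts, where 4.33%, 7.79% and 3.71% of all tested genes were called against 3.48% in the reported fit. In the MEIS2 contrast 1 was lower with RLE size factors, filterByExpr, DESeq2 and total counts, and 5 with GC content and length. In this order, 2.46%, 3.88%, 3.41%, 2.56% and 4.7% of all tested genes were called, against 2.57% in the reported fit. Between MEIS1-OE and MEIS2-OE 4 were lower with only the groups compared, 20 with GC content and length and 13 with total counts. These fits called 5.82%, 12.3% and 8.3% of all tested genes, against 7.75% in the reported fit. With GC content and length in the fit, the share of all tested genes called rose as well, from 9.10% to 15.6% in MEIS1-OE and from 7.75% to 12.3% between MEIS1-OE and MEIS2-OE. The causes of these shifts were not tested.

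With each replicate number left out in turn, the number of genes lower ranged from 12 to 39 in MEIS1-OE, from 1 to 2 in MEIS2-OE (1 without numbers 5 or 6), from 4 to 10 in MEIS2-KO (4 without number 1, 5 without numbers 2 or 5), from 6 to 19 in the MEIS1 contrast, from 0 to 1 in the MEIS2 contrast (1 without numbers 2 or 3) and from 2 to 21 between MEIS1-OE and MEIS2-OE. The number higher in MEIS1-KO ranged from 0 to 2 (0 without number 5, 2 without number 6). Over all tested genes, the share called in these fits ranged from 5.92% to 11% in MEIS1-OE and from 0.838% to 1.26% in MEIS2-OE. It ranged from 0.555% to 1.34% in MEIS1-KO and from 4.87% to 10.3% in MEIS2-KO. In the MEIS1 and MEIS2 contrasts it was 2.05% to 3.84% and 1.16% to 2.51%, and between MEIS1-OE and MEIS2-OE 5.23% to 10.3%. Without single libraries that stood apart, the number higher in MEIS1-KO ranged from 2 to 3. The number lower ranged from 29 to 39 in MEIS1-OE, was 5 in MEIS2-KO, and ranged from 11 to 19 in the MEIS1 contrast. It ranged from 0 to 1 in the MEIS2 contrast (1 without MEIS2-OE replicate 6 or ctrl-KO replicate 2) and from 10 to 28 between MEIS1-OE and MEIS2-OE. Of all tested genes, 9.58% to 12.7% were then called in MEIS1-OE, 1.18% to 1.25% in MEIS1-KO and 6.9% to 8.66% in MEIS2-KO. The share was 3.54% to 4% and 2% to 2.72% in the MEIS1 and MEIS2 contrasts, and 7.47% to 11.6% between MEIS1-OE and MEIS2-OE. Under these alternatives no called direction of a gene selected to be named reversed.

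Of 90 pairs of libraries that share a number, the deviations correlated above 0.1 in 16. Their mean was 0.036, with a range of -0.16 to 0.39, against a mean of -0.0073 for pairs with other numbers. The number does not establish a pairing. With the replicate block, 29 genes were lower in MEIS1-OE, 2 were higher and 1 was lower in MEIS1-KO, and 1 was lower in the MEIS2 contrast. Of all tested genes, 10.4%, 2.33% and 3.65% were called in these comparisons with the block, against 9.10%, 1.46% and 2.57% without it. Each of the 50 genes had at least 302 counts in every library, and the part of counting error in the spread between libraries was not tested.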

Other observations

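In the MEIS2 conditions the inhibitor CDKN2C moved in opposite directions, with log2 fold changes of 2.50 in MEIS2-OE and -0.60 in MEIS2-KO, while it was at -0.96 in MEIS1-OE (all called by edgeR's quasi-likelihood test). KIF20A and CDC25C, the only members called in MEIS2-OE, lie near each other on the long arm of chromosome 5, which was noticed after their values were seen. CCNB1, PTTG1 and HMMR lie on the same arm and were not called in MEIS2-OE. Of the genes between or overlapping KIF20A and CDC25C, GFRA3, with a mean of 0.434 CPM, was called lower in MEIS1-OE at a log2 fold change of -1.51, and BRD8, CDC23 and FAM53C were not called.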
